A study of Mus musculus with 4 samples.

Results

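The genes described here are 39 leukocyte genes, each a known marker of white blood cells, out of 55487 gene identifiers measured in RNA from muscle stem cells. They were taken by gene symbol from a given list and grouped by lineage into 6 pan-leukocyte, 9 macrophage, 4 neutrophil, 8 mast cell, 5 T/NK cell, 3 B cell and 4 MHC class II genes. The list was drawn up with the ratio of the Numb exon 6 to the control morpholino within each mouse in view, so all values of that contrast are given as a description and carry no test of the members.

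Satellite cells, the stem cells of skeletal muscle, came from Tg:Pax7-nGFP mice, in which a transgene marks Pax7-expressing nuclei with green fluorescent protein. Minced muscle was exposed to a vivo-morpholino, an antisense oligomer that enters cells without transfection, in the initial digestion step before the cells were isolated. The Numb exon 6 morpholino prevents the inclusion of exon 6 in Numb transcripts and was set against a control morpholino. Mouse 1 and mouse 2 each gave 1 library with the Numb exon 6 morpholino and 1 with the control morpholino, so 4 libraries of 2 animals of the same genotype were compared and no untreated muscle was included. The sources used here do not give age, sex or the muscles taken.

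Resting skeletal muscle holds resident macrophages and mast cells, and its vessels hold circulating neutrophils and lymphocytes. Macrophages clear debris and are known for their part in muscle repair, and neutrophils are short-lived phagocytes whose granules are filled with antimicrobial proteins. Mast cells are tissue-resident cells whose granules store histamine and proteases. MHC class II molecules present peptides on B cells, dendritic cells and macrophages to T cells. In bulk RNA, a difference in the number of cells of a type and a difference in RNA per cell cannot be told apart.

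Promoter windows, taken from RefSeq on GRCm38.p6, are shown for members whose values fell into 3 different patterns across the libraries, and 27 of the 39 members had an entry. The windows end at the base before the RefSeq start, run 5′ to 3′ on the strand of the gene, and carry the matched motif letters in capitals. That of Mcpt4 was cut to 197 bases, because an exon of the gene in the GENCODE annotation reaches the bases next to that start. The mast cell protease genes were high in both Numb exon 6 libraries: Cpa3 at chr3:20242182-20242381 (minus strand), Cma1 at chr14:55944676-55944875 (minus strand) and Mcpt4 at chr14:56062314-56062510 (minus strand). The neutrophil gene S100a9 at chr3:90695722-90695921 (minus strand) was high in 1 library. The class II genes H2-Aa at chr17:34287824-34288023 (minus strand) and H2-Eb1 at chr17:34305667-34305866 (plus strand) were low in 1 library.
Cpa3: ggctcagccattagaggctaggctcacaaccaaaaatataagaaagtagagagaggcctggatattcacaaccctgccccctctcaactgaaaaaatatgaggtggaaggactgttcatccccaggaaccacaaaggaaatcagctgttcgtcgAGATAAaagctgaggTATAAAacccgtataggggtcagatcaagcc
Cma1: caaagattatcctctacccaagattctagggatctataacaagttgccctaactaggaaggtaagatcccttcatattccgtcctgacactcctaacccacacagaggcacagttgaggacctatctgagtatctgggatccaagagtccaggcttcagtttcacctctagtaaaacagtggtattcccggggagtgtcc
Mcpt4: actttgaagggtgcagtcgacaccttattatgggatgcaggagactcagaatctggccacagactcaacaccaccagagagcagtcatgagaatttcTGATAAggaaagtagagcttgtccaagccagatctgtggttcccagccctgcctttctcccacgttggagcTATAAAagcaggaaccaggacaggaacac
S100a9: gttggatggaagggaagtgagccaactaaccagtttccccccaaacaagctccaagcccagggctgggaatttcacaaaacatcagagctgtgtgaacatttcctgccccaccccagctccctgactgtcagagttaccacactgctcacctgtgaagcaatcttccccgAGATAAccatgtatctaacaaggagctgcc
H2-Aa: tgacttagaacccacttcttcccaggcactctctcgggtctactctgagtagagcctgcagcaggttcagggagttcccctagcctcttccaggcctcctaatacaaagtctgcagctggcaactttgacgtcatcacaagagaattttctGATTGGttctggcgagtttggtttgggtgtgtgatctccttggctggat
H2-Eb1: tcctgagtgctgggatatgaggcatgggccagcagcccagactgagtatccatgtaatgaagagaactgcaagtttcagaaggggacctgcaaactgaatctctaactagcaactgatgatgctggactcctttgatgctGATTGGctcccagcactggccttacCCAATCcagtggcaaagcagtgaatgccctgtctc
The letters searched on both strands were TATAAA, the TATA box, AGATAA or TGATAA, which GATA factors can bind, and GATTGG, the Y box of class II promoters (CCAATC on the other strand). No matches overlap in the windows shown. Positions count from the RefSeq start to the leftmost base of the match, also for the shorter Mcpt4 window. Cpa3 held TATAAA at -31 and AGATAA at -46. Mcpt4 held TATAAA at -32 and TGATAA at -103. Cma1 held none of the letters. S100a9 held AGATAA at -30, H2-Aa held GATTGG at -49, and H2-Eb1 held it at -60 and, on the other strand, at -35. Of 32851 promoter windows of 200 bases, 9.96% held the TATA box, 13.2% a GATA motif and 12.9% the Y box. Among the windows not shown, those of Cd68 and Nkg7 held the Y box and those of Ptprc and S100a8 the TATA box. Those of the mast cell genes Mrgprb1, Kit and Hdc held none of the letters. These matches describe the sequence and were not read as bound sites.

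All libraries carried the markers of satellite cells. TPM is a level scaled for transcript length and library size. The 13 satellite cell markers summed to 12270 and 12340 TPM in the Numb exon 6 libraries of mouse 1 and mouse 2. In the controls they summed to 10390 and 11260 TPM. Pax7, chosen after its values were seen, stood between 37.0 and 59.7 TPM in every library. The estimated counts summed to between 230431665 and 355411827 per library. Low counts peak at 4, 8 and 12, so a sequenced fragment may be worth about 4 counts, although counts of 1 and 2 are also common and the scale is not settled. If so, a gene with 3 to 5 counts rests on about 1 fragment. On that scale a count of 0 was read as allowing up to 12 counts (3 fragments), which is 0.0344 to 0.0513 CPM (a count scaled for library size only) by library and covers counting error only. Among other cell types, 7 erythroid genes summed to 928 and 1734 TPM in the Numb exon 6 libraries of mouse 1 and mouse 2 and to 538 and 1532 TPM in the controls. The 10 fibro-adipogenic genes summed to 1801 and 1677 TPM with the Numb exon 6 morpholino and 1699 and 1593 TPM with the control. The 10 myofibre genes summed to 174.8 and 181.5 TPM with the Numb exon 6 morpholino and 156.1 and 163.7 TPM with the control. All 10 endothelial markers were highest in the Numb exon 6 library of mouse 1. The part of these differences in the leukocyte values was not tested.

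Leukocyte transcripts were scarce beside those of the stem cells. The 39 genes together made up 0.0102% and 0.0173% of all TPM in the Numb exon 6 libraries of mouse 1 and mouse 2, against 0.00721% and 0.00472% in the controls. Only 15 of them had a mean of 1 TPM or more over the 4 libraries, led by Cd68 at 19.4, S100a8 at 13.7, Lyz2 at 11.4 and Cd74 at 10.6 TPM. Their levels summed to 101.6 and 173.5 TPM with the Numb exon 6 morpholino in mouse 1 and mouse 2, and to 72.1 and 47.2 TPM with the control. Without the 4 neutrophil genes, the sums were 97.9 and 87.5 TPM with the Numb exon 6 morpholino and 69.2 and 40.0 TPM with the control.

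**Figure D1:**
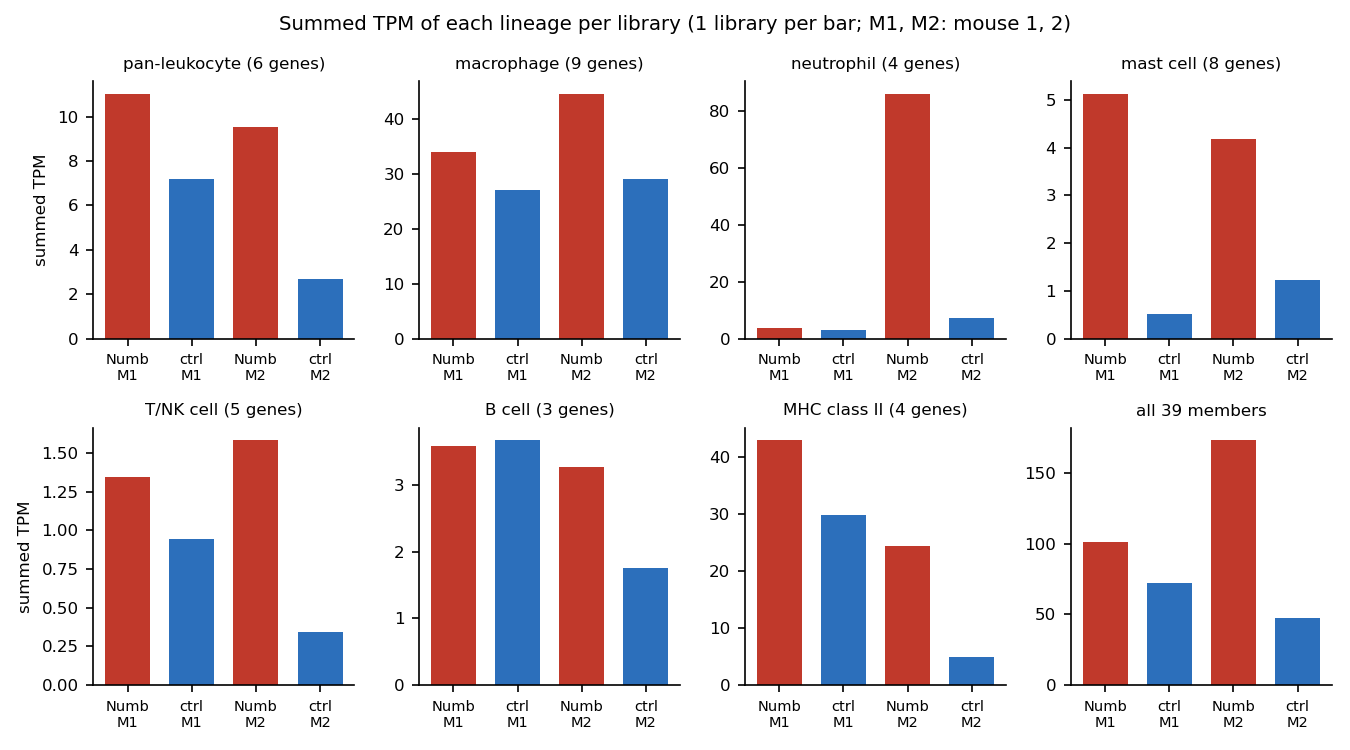
Summed TPM of the genes of each lineage in each library, with the Numb exon 6 bar left of the control bar of the same mouse (each bar is 1 library, so there is no error bar, and each panel has its own axis from 0). Neutrophil genes peak with the Numb exon 6 morpholino in mouse 2, at 86.0 TPM, mast cell genes in both Numb exon 6 libraries, and MHC class II genes are low in the control of mouse 2, at 4.93 TPM.

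By direction, 26 of the 39 genes were higher with the Numb exon 6 morpholino in both mice, where 22.9% of the 45277 genes with a count were, and 3 were lower in both, where 20.2% of all were. The remaining 10 differed in direction between the mice or were tied. Taken by mouse, 29 members were higher in mouse 1 (46.8% of all genes) and 33 in mouse 2 (46.1% of all). Both Numb exon 6 libraries stood above both controls for 15 members (14.7% of all genes) and below them for 2, Csf1r and Gzma (13.3% of all). The 35 members that passed the low-count filter had a median log2 fold change of 1.27, against 0.01 over all 27551 genes tested. Csf3r, Tpsab1, Cd3d and Gzma did not pass. These counts follow from how the list was drawn up. edgeR's quasi-likelihood test called 0 genes at an adjusted p under 0.05 (0% of 27551 genes, smallest adjusted p = 0.172), with 1145 genes at an unadjusted p under 0.05 (4.16%), 10 of them members. With the mouse as a block it called 0 genes (0%), with 1677 genes at an unadjusted p under 0.05 (6.09%), 15 of them members. Limma-voom called 0 genes (0%), with 1173 at an unadjusted p under 0.05 (4.26%), 9 of them members. DESeq2 called 65 genes (0.236%), 5 of them members, namely Lyz2, Tpsb2, Cpa3, Cma1 and Mcpt4. Tpsb2, Cpa3, Cma1 and Mcpt4 had 0 to 5 counts in the controls and passed the filter only through the Numb exon 6 libraries. As the list was drawn up on this contrast, the calls are no test of the members.

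**Figure D2:**
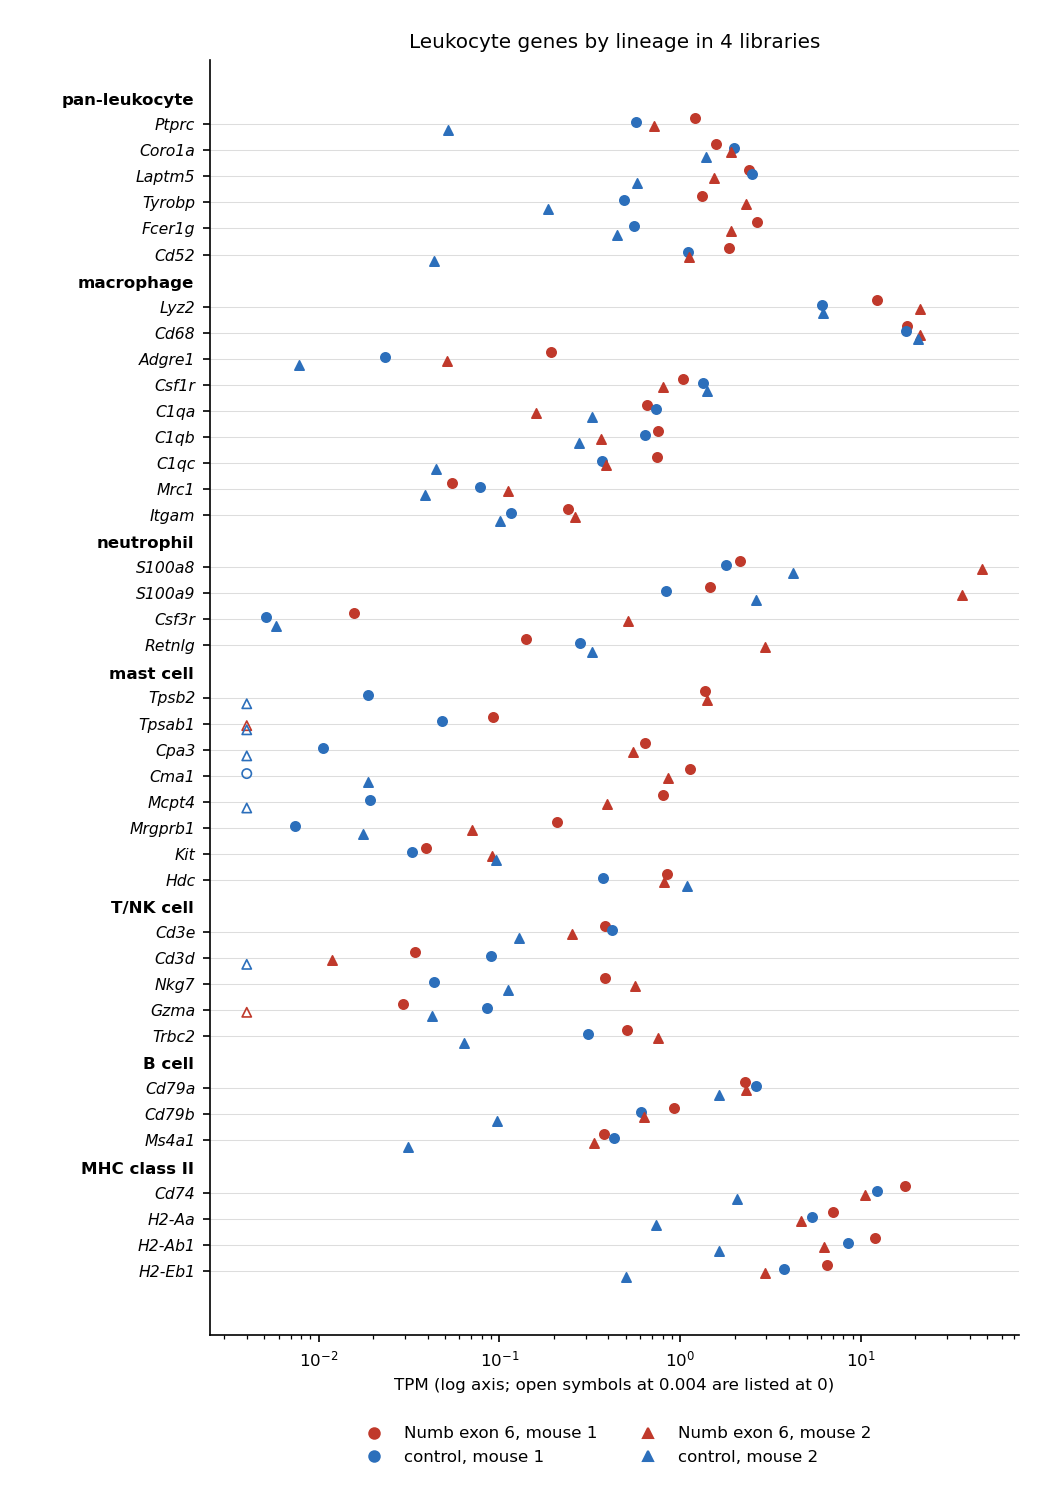
TPM of each of the 39 genes (rows, grouped by lineage) in the 4 libraries on a log axis, with red for the Numb exon 6 and blue for the control morpholino, circles for mouse 1 and triangles for mouse 2. Open symbols mark genes listed at 0. The blue triangle of mouse 2 lies far to the left for most pan-leukocyte, B cell and MHC class II genes, the red triangle far to the right for the neutrophil genes.

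The mast cell genes gave the clearest split between the morpholinos. Tpsb2, which encodes the mast cell tryptase beta stored in granules, had 250 and 185 counts in the Numb exon 6 libraries of mouse 1 and mouse 2, against 5 and 0 in the controls (1.38 and 1.41 TPM against 0.0187 and 0 TPM). Cpa3, the mast cell carboxypeptidase, had 151 and 95 counts with the Numb exon 6 morpholino and 3 and 0 with the control. Both controls lie under the 12 counts that a count of 0 allows, so no fold is given. Cma1, a chymase, had 200 and 110 counts with the Numb exon 6 morpholino and 0 and 4 with the control. Mcpt4, another chymase, had 146 and 52 counts with the Numb exon 6 morpholino and 4 and 0 with the control. Mrgprb1, a Mas-related receptor, had 143 and 35 counts with the Numb exon 6 morpholino, and 6 and 12 counts with the control. For each of these 5 genes the groups do not overlap, and together they summed to 890 and 477 counts with the Numb exon 6 morpholino and 18 and 16 with the control.

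The other 3 mast cell genes were not split in this way. Tpsab1, the second tryptase gene, had 29 and 0 counts in the Numb exon 6 libraries and 11 and 0 in the controls. Tpsb2 (chr17:25366305-25369098, plus strand) and Tpsab1 (chr17:25343245-25345562, minus strand) share no stretch of 50 bases between their transcripts, although 79.4% of 851 aligned bases are identical. Kit, the stem cell factor receptor, had 23 and 39 counts with the Numb exon 6 morpholino and 14 and 53 with the control. Hdc, which makes histamine, had 269 and 194 counts with the Numb exon 6 morpholino, against 129 and 406 with the control. Scaled for library size, both genes were higher with the Numb exon 6 morpholino in mouse 1. In mouse 2 Hdc was lower and Kit was near level, at a log2 ratio of -0.05.

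Of 14 further mast cell and basophil genes, 3 were higher and 1 was lower in both mice with the Numb exon 6 morpholino. The most abundant, Slc18a2 and Il1rl1, which encode a vesicular monoamine transporter and the IL-33 receptor, stood at 3.94 to 4.99 and 4.25 to 7.80 TPM over the libraries. The defining receptor genes Ms4a2 and Fcer1a, which encode the beta and alpha chains of the high-affinity IgE receptor and were chosen after their values were seen, had 0 counts in every library except 13 counts of Fcer1a in the Numb exon 6 library of mouse 2. On chromosome 14, Cma1 and Mcpt4 neighbour other chymase and granzyme genes. Among these, Gzmb, a granzyme of T and NK cells also chosen after its values were seen, had 130 and 25 counts with the Numb exon 6 morpholino and 0 and 0 with the control. Cma2, likewise chosen after its values were seen, had 21 and 6 counts with the Numb exon 6 morpholino and 0 and 4 with the control. The neighbours Mcpt1, Mcpt2 and Mcpt8, chosen in the same way, were not split by morpholino. Mcpt1 had 0 counts in every library, and Mcpt2 had 4 counts in the Numb exon 6 library of mouse 1 only. Mcpt8 had 7 and 22 counts with the Numb exon 6 morpholino and 24 and 8 with the control. Of the 50-base stretches of the Mcpt4 transcript 5.48% recur in other transcripts, most often in Cma2.

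**Figure D3:**
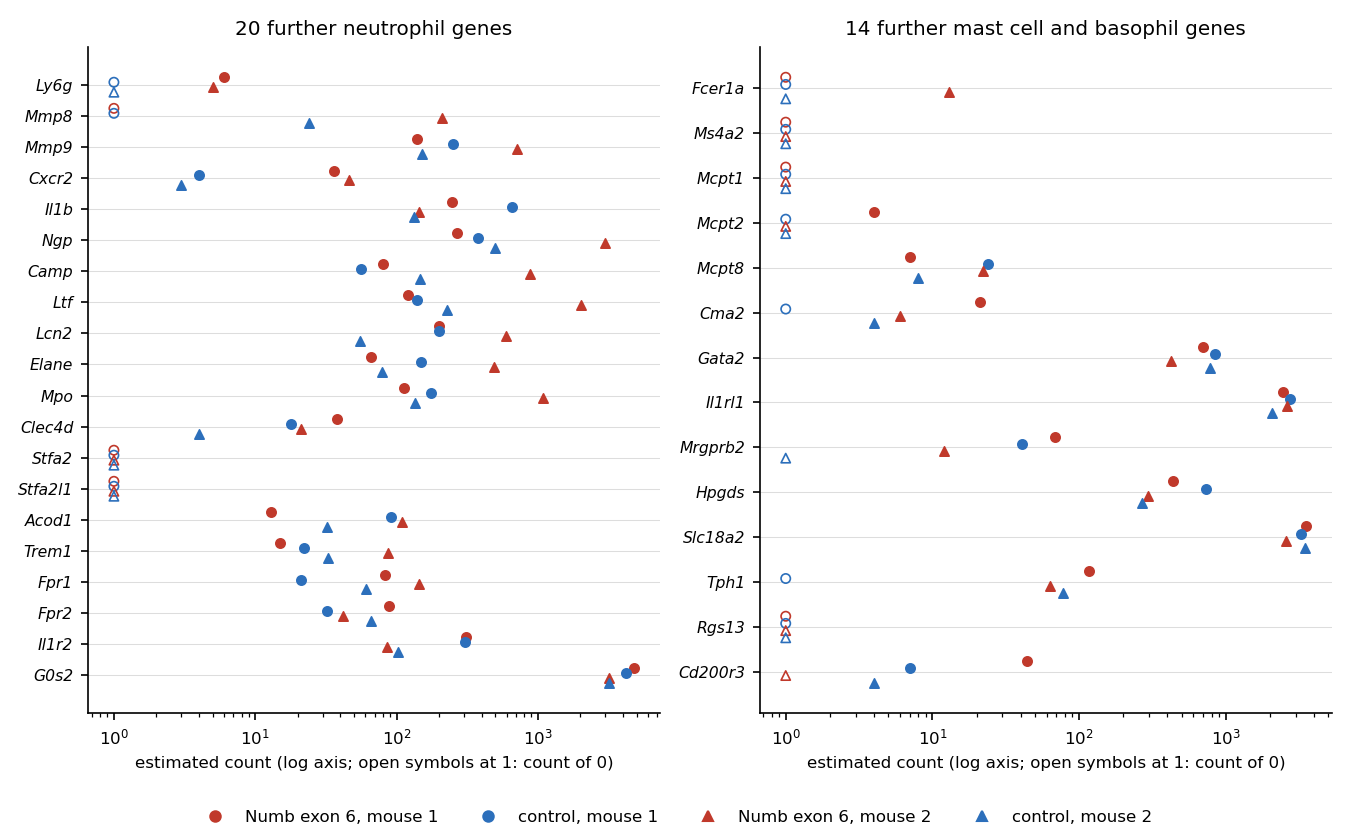
Estimated counts of 20 further neutrophil genes (left) and 14 further mast cell and basophil genes (right) in the 4 libraries on a log axis, with red for the Numb exon 6 and blue for the control morpholino, circles for mouse 1 and triangles for mouse 2 (open symbols at 1 are counts of 0). Granule genes such as Ngp and Ltf stand apart in the Numb exon 6 library of mouse 2, at 2966 and 2026 counts, whereas Il1b and Il1r2 are no higher there than in the libraries of mouse 1.

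The neutrophil genes stood out in a single library, that of mouse 2 with the Numb exon 6 morpholino. S100a8 and S100a9, the partners of the calprotectin dimer that neutrophils carry in their cytosol, are neighbours on chromosome 3. S100a8 had 2.14 and 46.6 TPM in the Numb exon 6 libraries of mouse 1 and mouse 2, against 1.78 and 4.23 TPM in the controls. S100a9 had 1.45 and 36.0 TPM with the Numb exon 6 morpholino and 0.836 and 2.63 TPM with the control. The ratio of S100a8 to S100a9 was between 1.29 and 2.13 in all libraries. Csf3r, the receptor of granulocyte colony-stimulating factor, had 9 and 195 counts with the Numb exon 6 morpholino and 4 and 4 with the control. Retnlg, a resistin-like protein of neutrophils, had 14 and 207 counts with the Numb exon 6 morpholino and 32 and 31 with the control. All 4 genes were over 4-fold higher in the Numb exon 6 library of mouse 2 than in each other library, as were 2.6% of all genes with a count. Without this library the log2 fold change of S100a8 was -0.53, of S100a9 -0.29 and of Retnlg -1.14, against 2.96 ± 1.37, 3.38 ± 1.47 and 2.26 ± 1.34 (SE, n = 2 per group) with it.

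Of 20 further neutrophil genes 13 were highest in the same library, 4 in the other Numb exon 6 library and 1 in the control of mouse 1, and 2 had no count in any library. The share of all genes highest in that library of mouse 2 is not given, so the count of 13 has no background beside it. Il1b and Il1r2, which were not highest there, were chosen after their values were seen. Il1b, an inflammatory cytokine, had 247 and 144 counts with the Numb exon 6 morpholino and 657 and 132 with the control. Il1r2, its decoy receptor, had 310 and 85 counts with the Numb exon 6 morpholino and 303 and 103 with the control. The most abundant of the 20 genes, G0s2, a lipase inhibitor found in many cells, had 33.7 and 31.0 TPM with the Numb exon 6 morpholino and 25.8 and 23.2 TPM with the control, a log2 ratio of 0.31 in mouse 1 and 0.39 in mouse 2 with no overlap. The next, Ngp, an antimicrobial granule protein, had 1.33 and 20.4 TPM with the Numb exon 6 morpholino and 1.64 and 2.54 TPM with the control. Genes of primary granules, Mpo and Elane, and of secondary granules, Ltf and Camp, were chosen after their values were seen. Mpo had 113 and 1079 counts with the Numb exon 6 morpholino and 174 and 135 with the control. Elane had 66 and 488 counts with the Numb exon 6 morpholino and 149 and 79 with the control. Ltf had 121 and 2026 counts with the Numb exon 6 morpholino and 139 and 228 with the control. Camp had 80 and 877 counts with the Numb exon 6 morpholino and 56 and 147 with the control. Mpo and Elane are made early in the maturation of neutrophils in the bone marrow. Ly6g, the surface marker of mature neutrophils, had 6 and 5 counts with the Numb exon 6 morpholino and 0 and 0 with the control. These counts were too few to pass the low-count filter. Ly6g, Mmp9, Mmp8 and Cxcr2 were also chosen after their values were seen. Mmp9 had 139 and 707 counts with the Numb exon 6 morpholino and 252 and 152 with the control. Mmp8 had 0 and 210 counts with the Numb exon 6 morpholino and 0 and 24 with the control. Cxcr2 was high in both Numb exon 6 libraries, at 36 and 46 counts against 4 and 3. The stage of maturation was not tested. By likeness of log2 CPM over the 4 libraries, the 5 non-member genes closest to S100a8 among 14452 were Homer1, Amacr, Tsga10, Bmpr1a and Snx16 (Pearson r of 0.9996 or more). Their levels differ little. Homer1, for example, had 105.7 and 140.9 CPM with the Numb exon 6 morpholino and 104.3 and 112.5 CPM with the control.

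The pan-leukocyte, B cell and MHC class II genes on the list had another pattern in common, their lowest level in the control library of mouse 2. Fcer1g, Coro1a and Cd79a were not far below the others there, at 0.447, 1.38 and 1.63 TPM. In the next lowest library they had 0.552, 1.57 and 2.28 TPM. Of the 39 genes 25 were lowest in that library by CPM, as were 16.8% of all genes with a count. Among them were all 6 pan-leukocyte, all 3 B cell and all 4 class II genes, and 6 of the 9 macrophage genes. The macrophage gene Lyz2 was lowest there by a narrow margin, 4.21 against 4.32 CPM in the control of mouse 1, and TPM gave the other order. Ptprc, which encodes the surface phosphatase CD45 of all leukocytes, had 1.21 and 0.719 TPM in the Numb exon 6 libraries of mouse 1 and mouse 2, against 0.572 and 0.0520 TPM in the controls. Cd52 had 1.86 and 1.12 TPM with the Numb exon 6 morpholino and 1.11 and 0.0437 TPM with the control. For Cd52, mouse 2 with the Numb exon 6 morpholino and the control of mouse 1 were thus near each other, and the control of mouse 2 stood far below.

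Fcer1g and Tyrobp encode signalling adaptors of Fc and other activating receptors of myeloid, mast and NK cells. Fcer1g had 2.67 and 1.91 TPM with the Numb exon 6 morpholino and 0.552 and 0.447 TPM with the control, and its ratio was much the same in both mice (log2 ratio of 2.19 in mouse 1 and 1.98 in mouse 2). Tyrobp had 1.32 and 2.31 TPM with the Numb exon 6 morpholino and 0.490 and 0.186 TPM with the control. Both adaptors did not overlap between the groups, and Ptprc did not by a narrow margin, at 1.47 CPM in mouse 2 with the Numb exon 6 morpholino and 1.43 CPM in the control of mouse 1. Coro1a, an actin regulator, and Laptm5, a lysosomal membrane protein, were closer together, with 282 to 330 counts of Coro1a in the Numb exon 6 libraries and 188 to 413 in the controls, and 478 to 813 counts of Laptm5 in the Numb exon 6 libraries and 196 to 753 in the controls. Of 20 further pan-leukocyte genes 18 were lowest in the control of mouse 2. The most abundant, Arhgdib, had 11.3 and 14.5 TPM with the Numb exon 6 morpholino and 17.3 and 11.8 TPM with the control, and Plek had 1.59 and 1.48 TPM with the Numb exon 6 morpholino and 0.457 and 0.408 TPM with the control.

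The class II genes encode the peptide-presenting chains H2-Aa, H2-Ab1 and H2-Eb1 and the invariant chain Cd74, which escorts them. Cd74 had 17.5 and 10.6 TPM in the Numb exon 6 libraries of mouse 1 and mouse 2, against 12.2 and 2.05 TPM in the controls. H2-Aa had 6.98 and 4.69 TPM with the Numb exon 6 morpholino and 5.38 and 0.735 TPM with the control. H2-Ab1 had 11.95 and 6.22 TPM with the Numb exon 6 morpholino and 8.50 and 1.64 TPM with the control. All 4 genes were highest in mouse 1 with the Numb exon 6 morpholino and lowest in the control of mouse 2, and the groups overlap for each, since the control of mouse 1 exceeded the Numb exon 6 library of mouse 2. H2-Eb1 had 6.52 and 2.94 TPM with the Numb exon 6 morpholino and 3.75 and 0.499 TPM with the control. In mouse 2 the log2 ratios of the 4 genes were 1.89 to 2.59, in mouse 1 they were 0.30 to 0.80. Without the control library of mouse 2, the log2 fold change between the morpholinos was 0.14 for Cd74, 0.03 for H2-Aa, -0.02 for H2-Ab1 and 0.29 for H2-Eb1, against 0.94 ± 0.84, 0.86 ± 0.89, 0.74 ± 0.81 and 1.12 ± 0.98 (SE, n = 2 per group) with it. Without that library it was also 0.51 for Ptprc and 2.00 for Fcer1g, against 1.38 ± 1.04 and 2.13 ± 0.47 with it. The class II regulator Ciita, chosen after its values were seen, had 0.507 and 0.491 TPM with the Numb exon 6 morpholino and 0.576 and 0.661 TPM with the control, so it was not low in the control of mouse 2. Of 12 further class II and dendritic cell genes only 3 were lowest in that library. The most abundant, Zbtb46 and H2-DMa, were at 24.2 and 3.35 TPM in the control of mouse 2, within the range of the other libraries.

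Of the B cell genes, Cd79a and Cd79b encode the signalling chains of the B cell receptor and Ms4a1 encodes CD20. Cd79b had 0.926 and 0.627 TPM with the Numb exon 6 morpholino and 0.608 and 0.0966 TPM with the control. Ms4a1 had 0.381 and 0.332 TPM with the Numb exon 6 morpholino and 0.431 and 0.0312 TPM with the control. Cd79a was closer to level at 2.28 and 2.32 TPM with the Numb exon 6 morpholino and 2.63 and 1.63 TPM with the control. Of its transcript 8.31% of 50-base stretches are shared with other genes. Of 12 further B cell genes 9 were lowest in the control of mouse 2. Ighm, the immunoglobulin mu heavy chain, had 512 and 535 counts with the Numb exon 6 morpholino and 840 and 63 with the control, and Igkc, the kappa light chain, had 269 and 275 counts with the Numb exon 6 morpholino and 435 and 37 with the control.

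The macrophage genes did not move together. Lyz2, the lysozyme of macrophages and neutrophils, had 12.3 and 21.2 TPM with the Numb exon 6 morpholino and 6.09 and 6.14 TPM with the control, with no overlap. Of the 50-base stretches of the Lyz2 transcript 15.4% recur elsewhere, most often in Lyz1. Cd68, a lysosomal glycoprotein of macrophages and the most abundant member, was level, with 17.9 and 21.2 TPM with the Numb exon 6 morpholino and 17.7 and 20.7 TPM with the control. Adgre1, which encodes F4/80, had 102 and 20 counts with the Numb exon 6 morpholino and 15 and 5 with the control. Itgam, which encodes CD11b of macrophages and neutrophils, had 177 and 147 counts with the Numb exon 6 morpholino and 93 and 38 with the control, but 72.4% of the 50-base stretches of its transcript recur elsewhere, most often in the gene model Gm49368. Csf1r, the receptor that macrophages need for survival, was in the other direction, at 1.03 and 0.799 TPM with the Numb exon 6 morpholino and 1.34 and 1.40 TPM with the control, and 17.7% of its 50-base stretches recur elsewhere, most often in Hmgxb3.

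The complement genes C1qa, C1qb and C1qc encode the 3 chains of 1 protein, C1q. C1qa had 112 and 20 counts with the Numb exon 6 morpholino and 145 and 54 with the control, and C1qb had 134 and 48 counts with the Numb exon 6 morpholino and 130 and 48 with the control. C1qc had 147 and 57 counts with the Numb exon 6 morpholino and 84 and 9 with the control. The chains thus differed in direction. Mrc1, the mannose receptor CD206 of resident macrophages, had 38 and 72 counts with the Numb exon 6 morpholino and 80 and 33 with the control. Of 20 further macrophage genes 11 were lowest in the control of mouse 2. The most abundant, Lgals3 and Cd14, were at 50.9 and 37.1 TPM and at 10.4 and 16.7 TPM with the Numb exon 6 morpholino, and at 49.2 and 44.5 TPM and at 10.6 and 15.5 TPM with the control.

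The T/NK cell genes had few counts, at most 80 in any library. Nkg7, a cytotoxic granule membrane protein, had 57 and 56 counts with the Numb exon 6 morpholino and 5 and 16 with the control. Trbc2, a T cell receptor beta constant gene, had 58 and 62 counts with the Numb exon 6 morpholino and 41 and 8 with the control. Of its 50-base stretches 44.0% recur elsewhere, most often in Trbc1. Cd3e, a chain of the T cell receptor complex, had 67 and 37 counts with the Numb exon 6 morpholino and 80 and 30 with the control. Cd3d, a chain of the same complex, had 9 and 3 counts with the Numb exon 6 morpholino and 23 and 0 with the control. Gzma, granzyme A, had 5 and 0 counts with the Numb exon 6 morpholino and 16 and 7 with the control. Only Nkg7 and Trbc2 stood higher with the Numb exon 6 morpholino in both mice.

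**Figure D4:**
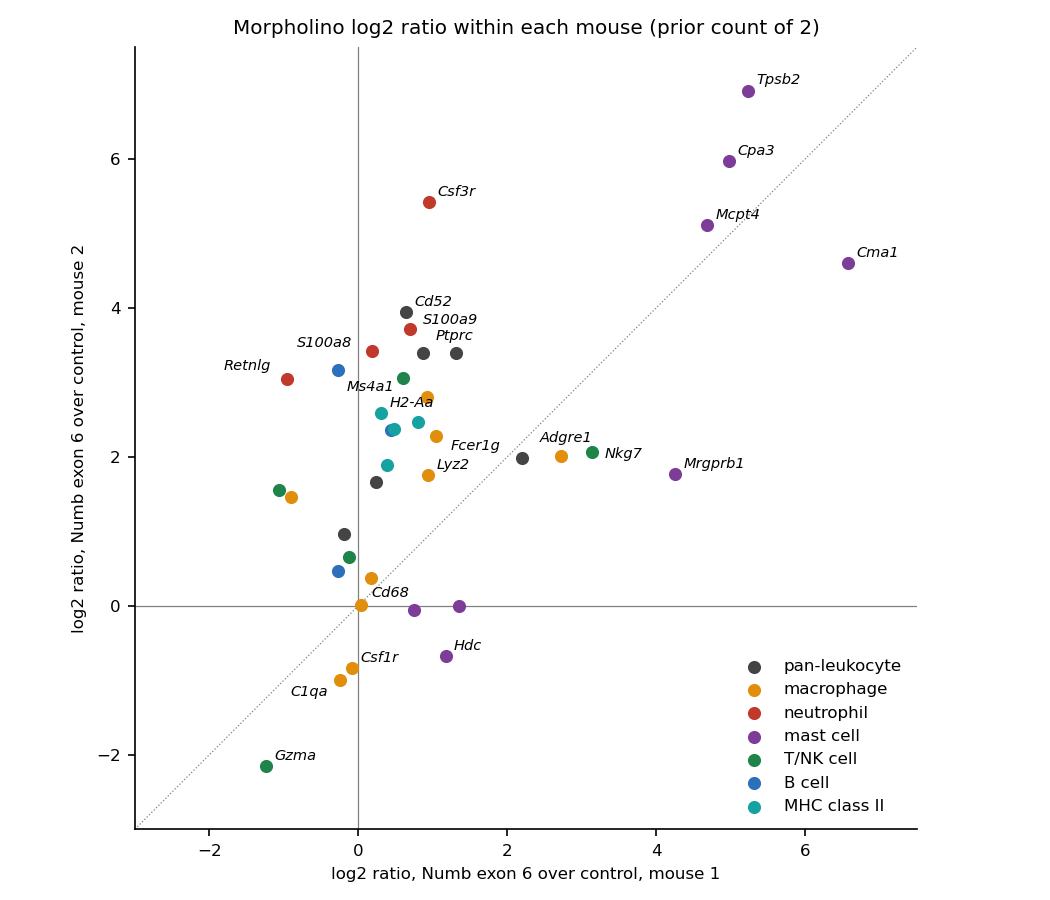
Log2 ratio of the Numb exon 6 over the control library in mouse 1 (x axis) and in mouse 2 (y axis) for the 39 genes, coloured by lineage, with a prior count of 2. The dotted line marks equal ratios. 5 mast cell genes lie at the upper right in both mice, neutrophil, MHC class II and most pan-leukocyte genes lie above the line because mouse 2 gave the larger ratio, and Cd68 lies at 0.

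By their median, the ratios were larger in mouse 2. The median log2 ratio of the 39 genes was 2.06 in mouse 2 and 0.64 in mouse 1, whereas it was 0 in both mice over all genes with a count. The mast cell genes went the other way, with a median log2 ratio of 3.18 in mouse 2 and 4.46 in mouse 1. 10 genes were more than 2-fold higher with the Numb exon 6 morpholino in both mice, where 4.08% of all genes were, and they were Tyrobp, Fcer1g, Adgre1, Itgam, Nkg7 and the 5 mast cell genes Tpsb2, Cpa3, Cma1, Mcpt4 and Mrgprb1. The plot of ratios by mouse shows the ratio of the 5 mast cell genes to rest on controls near 0, so its size depends on the prior count.

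Comparing the 2 mice, each with its 2 libraries and irrespective of morpholino, the members were not called apart. edgeR's quasi-likelihood test called 7 of 27551 genes (0.0254%) between mouse 2 and mouse 1, with 0 members among them, and 2290 genes had an unadjusted p under 0.05 (8.31%), among them 2 members, S100a8 (log2 fold change of 3.64 ± 1.08, SE, n = 2 libraries per mouse) and S100a9 (4.03 ± 1.21). The same libraries and the same high library of mouse 2 underlie these values. DESeq2 called 495 genes (1.8%) and limma-voom 9 (0.0327%) in this comparison, with 0 members each. The median log2 fold change of the members, mouse 2 minus mouse 1, was -0.38, against 0.02 over all genes tested. With 1 animal on each side, these p-values rest on how much the libraries of the same animal differ, and say nothing of how animals vary.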

How the data were processed

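RNA from muscle stem cells of 2 mice, 1 library per morpholino and mouse, was made into SMART-Seq2 cDNA from 5 ng of RNA, per the labels' protocols. This protocol does not mark strand. The authors' deposited tables hold estimated counts, which are whole numbers, and TPM for 55487 identifiers. Per the submitters' processing notes, HISAT2 2.1.0 and StringTie 1.3.6 were used with GRCm38. The annotation release and the step from coverage to count are not stated in these sources. Gene positions and transcripts were taken from GENCODE vM21 on GRCm38, promoters from RefSeq on GRCm38.p6.

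Estimated counts were tested with edgeR 4.0.16 in R 4.3.3 (TMM, default expression filter by group, robust quasi-likelihood, Benjamini-Hochberg adjustment at 0.05), with limma 3.58.1 and DESeq2 1.42.0 as alternatives. CPM values use TMM-scaled totals, and log2 ratios a prior count of 2. Directions, overlaps and the highest and lowest library of a gene were read from CPM. The tests were checked on simulated counts. Samples were grouped by the treatment label. The library names in the labels are numbered 2 and 3 where the treatment labels say mouse 1 and mouse 2. Columns were matched to samples by library name, and the mouse was taken from the treatment label of that sample. The replicate number is that of the mouse, so the libraries of an animal are paired. Deviations from group means correlated across genes at 0.401 within a mouse over the 8469 genes whose mean log2 CPM reached 3, and at 0.056 over all tested genes. The main test has no block. P-values measure the spread between libraries of 2 animals.

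The members, gene lists and tests were chosen with earlier results of these data known. Each member was described, and in each list of other leukocyte genes the 2 with the highest mean CPM were named. The other lists were given as a sum or a count of genes. Any other gene given with values is marked as picked with its values known, apart from those found by likeness to S100a8. Shared sequence was sought as 50-base stretches in transcripts of other genes. Some alternatives were added after seeing the data, namely DESeq2, limma-voom and the block for the members' median, and DESeq2 and limma-voom for single members. No protein sequence was used here.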

Additional observations from a re-analysis of the deposited data

Results flagged for a closer look

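For 9 members the log2 ratio of the Numb exon 6 over the control library had opposite signs in the 2 mice, and with 1 pair of libraries per mouse the difference was not tested. The difference in log2 ratio, mouse 2 minus mouse 1, was 4.01 for Retnlg, 3.44 for Ms4a1, 2.62 for Cd3d, 2.37 for Mrc1, 1.16 for Coro1a, 0.78 for Cd3e and 0.75 for Cd79a, all higher with the Numb exon 6 morpholino in mouse 2 and lower in mouse 1. It was -1.85 for Hdc and -0.80 for Kit, both lower with the Numb exon 6 morpholino in mouse 2 and higher in mouse 1. For Kit the log2 ratio in mouse 2 was only -0.05. Cd3d rests on 0 to 23 counts and Kit on 14 to 53 counts, and Retnlg on 14 and 207 counts with the Numb exon 6 morpholino and 32 and 31 with the control.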

How the results depend on the processing

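The count of genes called between the morpholinos, 0, was 10 with no filter on low counts, 1 with a minimum of 1 CPM in 2 libraries, 65 with DESeq2 and 0 to 1 on leaving out each library. It stayed at 0 with the other settings run, the replicate block by mouse among them. The count between mouse 2 and mouse 1, 7, was 119 with no filter, 26 with the minimum of 1 CPM, 495 with DESeq2, 3 with limma on log2(TPM + 1), 3 on log2(TPM + 0.1), 1 with the morpholino as a block and 1 to 14 on leaving out each library. The members' median log2 fold change of 1.27 was 1.43 with the replicate block, 0.45 on log2(TPM + 1) and 0.54 to 2.48 on leaving out each library, the lowest without the control of mouse 2 and the highest without the control of mouse 1. The count of 26 members higher in both mice was 25 to 27 under the other settings. Leaving out a library breaks a pair, so that count was not recomputed without each library. Of 465 values of 35 single members under the alternatives, 402 lay within the spread between the mice and 63 beyond it. The sign changed in 24 values of 14 members, 20 of them on leaving out a library. Hdc was the member that changed sign otherwise, with a log2 fold change of -0.02 and of 0.25 with the replicate block. A count of 0 allows up to 12 counts if a fragment is worth 4, so ratios against controls at 0 have no firm size.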

Other observations

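Further immune genes were read for cell types that the 39 genes do not cover. The eosinophil genes were near 0 apart from Prg2, the major basic protein, which had 1.58 and 2.28 TPM with the Numb exon 6 morpholino and 1.49 and 2.16 TPM with the control. Il5ra, the next by level, had 0 and 12 counts with the Numb exon 6 morpholino and 142 and 0 with the control. The platelet genes summed to 13.9 and 13.1 TPM with the Numb exon 6 morpholino and 14.5 and 15.6 TPM with the control. Among 24 further T/NK genes, 8 stood above the control of the same mouse in both animals and 5 stood below it. The most abundant, Ccl5, a chemokine that other cells also make, and Lck, a T cell kinase, stood at 7.79 and 11.5 TPM and at 1.96 and 2.85 TPM with the Numb exon 6 morpholino, and at 8.53 and 14.3 TPM and at 1.68 and 2.48 TPM with the control. Ccr7, a chemokine receptor of lymphocytes and dendritic cells chosen after its values were seen, had 624 and 305 counts with the Numb exon 6 morpholino in mouse 1 and mouse 2, and 586 and 9 with the control.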
